A study of Mus musculus with 2 samples.

Results

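The elements described here are stretches of the mouse genome that lie at promoters, hold few G and C bases, and changed reporter RNA in activated T-helper 2 (Th2) cells. An element was taken when its midpoint lay within 1000 bp of the annotated start of a protein-coding transcript and fewer than 55% of its bases were G or C. Of the 18431 elements in the authors' deposited table, 741 met both conditions, out of 5657 at promoters of any base composition. The measured fold was not used to choose them. STARR-seq, the assay, puts genomic DNA fragments inside a transcription unit on a plasmid, so that the RNA copied from a fragment reports the activity of that fragment. The cells were primary Th2 cells of C57BL/6NJ mice, helper T cells that make IL-4, IL-5 and IL-13. Antibodies to CD3e (0.25 ug/mL) and to CD28 (1 ug/mL), given for 3 days, engaged the T-cell receptor complex and its costimulator. A blocking antibody to interferon-gamma (2 ug/mL) and interleukin-2 were each present for 4 days, and interleukin-4 was added too. The plasmids were carried as episomes after transient transfection, so each fragment was tested outside its chromosome. There was 1 group, of 2 output libraries labelled biological replicates, whose donor record is shared, with the age unknown and the sex not collected. No other cell state or treatment was present.

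Promoters of vertebrates fall broadly into those with many CpG dinucleotides, which are GC-rich, often unmethylated and used in most tissues, and those with few, which are found more often at genes used in a few cell types or switched on by a signal. Promoters of the second kind lean on sites for regulated factors close to the start. Interferon-stimulated genes are a well-known case: the interferon-stimulated response element (ISRE), a site of interferon regulatory factors, lies just upstream of many of their starts.

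Each element has 1 log2 fold, 1 p-value and 1 q-value, and all of those given below are the authors' own, from the authors' deposited table. Positive stands for more reporter RNA than the reference and negative for less. The base of the logarithm and the reference are taken to be 2 and the input library, which the sources used here do not state. The table pools both libraries, so no spread between replicates can be given, and the depth behind an element is unknown. Intervals are exact (Clopper-Pearson) binomial intervals at 95% and cover counting error over elements only. The greatest q-value in the table was 0.01, so regions that did not pass are not in it.

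The site shown first is the ISRE, which 52 of the 145 elements of log2 fold 2 or more hold and 93 do not, searched as GAAANNGAAA on both strands. The 10 interferon-response genes with the largest folds among unique elements with a match are shown, on the gene's strand, 5′ to 3′, with the matched bases in capitals and up to 20 bases on each side of the match nearest the start (GRCm38).
Trim5, chr7:104288126-104288175, minus strand: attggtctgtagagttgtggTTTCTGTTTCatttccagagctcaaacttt
Trim12a, chr7:104315456-104315505, minus strand: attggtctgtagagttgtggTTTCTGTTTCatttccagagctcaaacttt
Ifi213, chr1:173599316-173599365, minus strand: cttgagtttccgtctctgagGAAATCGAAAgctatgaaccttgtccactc
Trim30d, chr7:104507861-104507910, minus strand: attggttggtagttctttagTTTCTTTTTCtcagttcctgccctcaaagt
Trim30a, chr7:104465200-104465249, minus strand: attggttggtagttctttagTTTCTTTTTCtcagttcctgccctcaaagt
Ifit1bl2, chr19:34640765-34640814, minus strand: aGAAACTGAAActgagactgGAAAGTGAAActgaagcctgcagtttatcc
Trim12c, chr7:104353349-104353398, minus strand: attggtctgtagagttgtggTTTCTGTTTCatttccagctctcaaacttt
Herc6, chr6:57581395-57581444, plus strand: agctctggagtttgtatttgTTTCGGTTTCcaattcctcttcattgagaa
Zbp1, chr2:173218939-173218988, minus strand: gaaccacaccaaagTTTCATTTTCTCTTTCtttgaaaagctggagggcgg
Irgm1, chr11:48871415-48871464, minus strand: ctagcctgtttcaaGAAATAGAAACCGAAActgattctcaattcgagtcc

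In 9 of these 10 stretches the match lay upstream of the annotated start, the exception being Herc6. Counted from the annotated start, with upstream positions negative, the match began at -61 in Trim5, -71 in Ifi213 and -41 in Trim30d. The Herc6 match began at 415, in an intron, and the stretches of Trim12a, Trim12c and Irgm1 lie partly or wholly in annotated exons. Ifit1bl2, Zbp1 and Irgm1 each hold a pair of matches within the stretch, and in Zbp1 and Irgm1 the matches overlap. The stretches of Trim5, Ifi213, both Trim30 genes, Ifit1bl2 and Zbp1 lie between annotated transcripts.

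Most promoter elements of low GC content raised reporter RNA. Of the 741, 638 were positive (86.1%, 95% interval 83.4 to 88.5%) and 103 negative, against 71.5% positive among all elements of the table. Promoter elements of GC content 55% or more went the other way, with 23.4% positive of 4916 (22.2 to 24.6%). Elements away from promoters with GC content under 55% were positive in 92.3% of 11425 cases (91.8 to 92.8%). None of these 3 intervals overlaps another. Within the limit the distal elements were also poorer in GC, with a median of 46.2% in positive ones against 50.3% at promoters.

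The direction moved with GC content in steps. At promoters the positive share was 92.3% under 40% GC (26 elements), 90.5% from 40 to 45%, 90.4% from 45 to 50% and 82.3% from 50 to 55%. It went on down outside the threshold, to 66.8% from 55 to 60%, 37.8% from 60 to 65% and 6.46% at 65% or more. Away from promoters the same steps gave 93.6%, 92.5%, 92.7%, 90.5%, 81.9%, 60.4% and 18.2%. The intervals of the promoter and distal shares overlap in each step below 50% GC and are apart from 50% upwards. The elements nearest the limit were mixed: Psmb3 (0.70), Zfp59 (-0.96) and Ndufs7 (-0.90) lay just inside it, and Zfp873 (-0.79), Chd9 (0.83) and Proser3 (1.03) just outside, all as log2 folds.

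**Figure D1:**
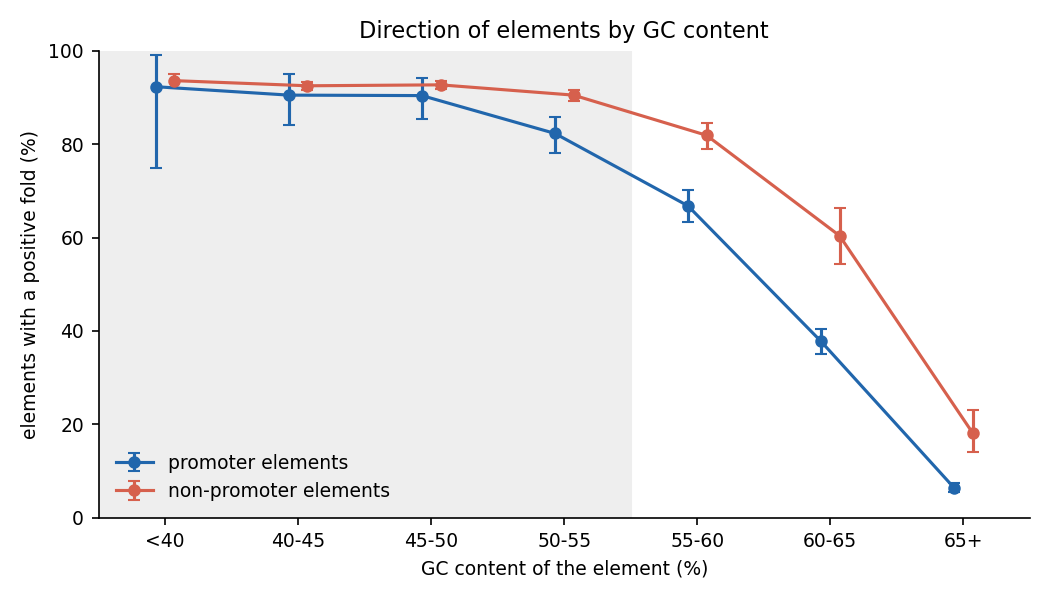
Share of elements with a positive fold (vertical axis, percent) by GC content of the element (horizontal axis, percent), at promoters (blue) and elsewhere (red), with exact 95% binomial intervals. Grey marks GC content under 55%, where promoter shares run from 82.3 to 92.3%, while they reach 6.46% in the most GC-rich step.

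The positive folds were wide and the negative ones narrow. Log2 folds of the 638 positive elements ran from 0.50 to 7.97, with a median of 1.17 (2.24-fold) and quartiles of 0.81 and 1.92. A log2 fold of at least 2 was reached by 145 elements, 19.6% of the 741, against 13.5% of all elements, 17.6% of low-GC elements away from promoters and 2.46% of GC-rich promoter elements. A log2 fold of at least 3 was reached by 67. The 103 negative elements had a median of -0.95 (1.94-fold lower) and none went below -1.96, whereas 592 of 3767 negative elements at GC-rich promoters were at -2 or lower. A q-value under 0.001 was held by 448 positive and 34 negative elements, 65% together, near the 60.7% of all elements.

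Within the low-GC promoters the CpG ratio, the observed number of CpG dinucleotides over that expected from the base counts, differed between the directions. Its median was 0.318 in positive and 0.521 in negative elements. Median GC content was 50.3% and 51.7%. The elements were chosen by a limit on GC content and by none on the CpG ratio, which narrows the range of GC content. Which of these measures differs more between the directions therefore cannot be told from these medians. Below a ratio of 0.2, 92.7% of 193 elements were positive (88.1 to 96.0%) and 28.5% reached a log2 fold of 2. At 0.6 or more, 76.4% of 148 were positive (68.7 to 82.9%) and 5.41% reached it. The median positive log2 fold went from 1.31 through 1.17 and 1.08 to 0.90 over the steps cut at 0.2, 0.4 and 0.6. Over the 741 elements Spearman's rho with the log2 fold was -0.26 for the CpG ratio, -0.14 for GC content and -0.03 for width. Among positive elements rho was -0.2 for the CpG ratio and -0.1 for GC content. Among negative elements the order was reversed, at -0.02 and -0.18. These values are given as a description because elements share libraries and GC and CpG content are linked. The limit on GC content also keeps its rho from being ranked against that of the CpG ratio.

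**Figure D2:**
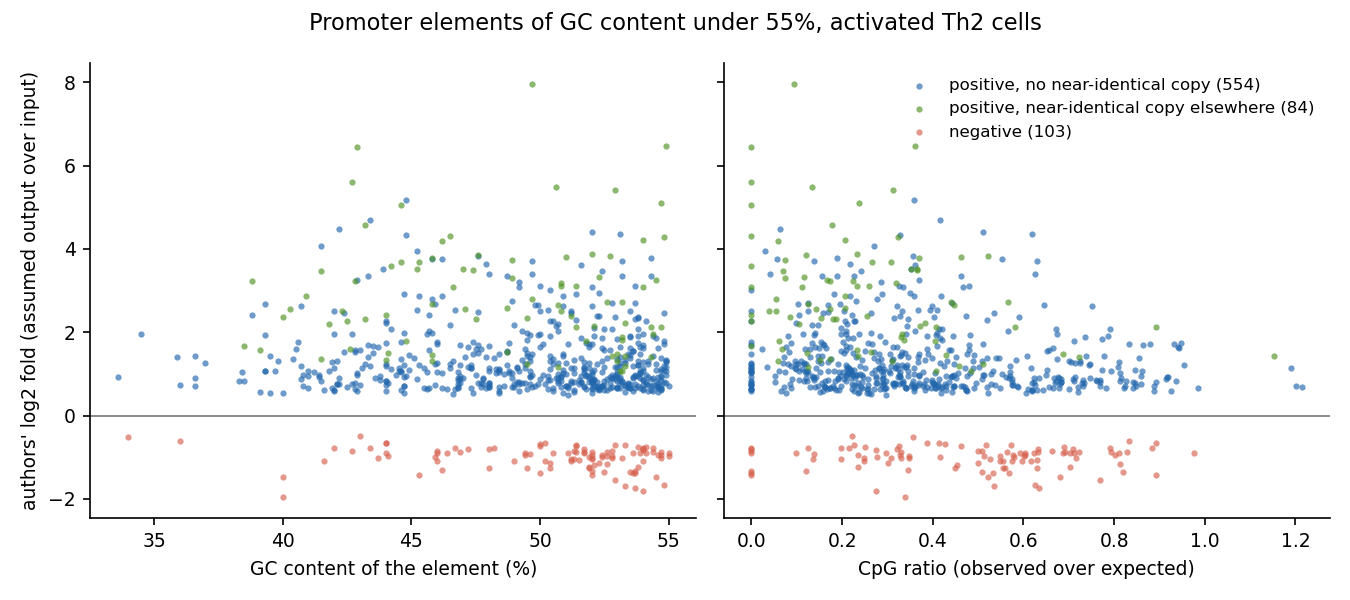
The authors' log2 fold of each of the 741 elements (vertical axis) against GC content in percent (left) and CpG ratio (right), with 1 point per element. Green marks the 84 elements with a near-identical copy elsewhere in the genome, all positive, and negative elements (red) lie at or above -1.96.

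The positive share was similar wherever the element lay relative to the start. The start itself lay inside 442 elements, of which 85.7% were positive, and beside the other 299, of which 86.6% were. Elements with a midpoint in the 250 bp upstream of the start held the largest share of strong elements, with 26.6% of 237 at a log2 fold of 2 or more, beside 25.4% of 59 in the 250 bp before that, 16.3% of 196 in the 250 bp downstream and 22.4% of 58 in the 250 bp after those, against 11.5% of 96 further than 500 bp upstream and 11.6% of 95 further than 500 bp downstream. The share differed with the composition of the start. Where the 300 bp around the start had GC content under 55%, 89.5% of 485 elements were positive (86.4 to 92.1%), and where it had 55% or more, 79.7% of 256 were (74.2 to 84.4%). At the low-GC starts, 90.8% of 305 elements that held the start were positive and 87.2% of 180 beside it. At the other starts these shares were 74.5% of 137 (66.3 to 81.5%) and 85.7% of 119 (78.1 to 91.5%), with overlapping intervals. For 210 elements the start lay further inside the gene than its outermost one, and 124 had no start of a basic-set transcript within 1000 bp. Of these, 90.5% and 91.1% were positive.

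Interferon-response genes held the most positive elements of any list examined. Of the 111 annotated genes on that list, 61 (55%) had a positive low-GC element at a promoter, while 2.98% of the 21829 protein-coding genes did. The 60 elements had a median log2 fold of 2.53, against 1.17 for all positive elements, and 39 of them reached 2. These 39 made up 26.9% of the 145 elements that did. Ifit2 was the 1 gene of the list with a negative low-GC element (-0.86), against 0.481% of all genes. GC-rich promoter elements were positive at 26 genes of the list and negative at 0, against 1286 and 3650 among all genes. The outermost start was of low GC content at 76.6% of the list and 39.5% of all genes. Of the 85 such genes on the list 55 had a positive low-GC element, against 4.24% of all 8623 such genes. Interferon-gamma was blocked by antibody in these cells, and no sample without that antibody or with added interferon was measured.

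The Trim genes of chromosome 7, which encode antiviral RING-finger proteins, gave the lowest q-values. Trim12a stood at 4.69 (q-value 1.60e-12) and Trim5 at 5.18 (q-value 1.60e-12), followed within the cluster by Trim30d at 3.96, Trim30a at 3.77, Trim12c at 3.65 and Trim34a at 2.76. Trim30c was lower, at 1.61, and so was Trim21, also on chromosome 7, at 0.79. The Ifit genes, whose products bind viral RNA, gave 3.86 at Ifit3, 2.67 at Ifit3b and 1.68 at Ifit1bl1. An element near starts of both Ifit1 and Ifit1bl2 stood at 3.70.

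The sensors and nucleic-acid enzymes of the response were positive over a wide range. Zbp1, a sensor of Z-form nucleic acid, stood at 3.48 and Adar, the editing enzyme for double-stranded RNA, at 3.11. The oligoadenylate synthetase genes gave 3.08 at Oasl2, 2.95 at Oasl1 and 2.02 at Oas1a. Dhx58, which encodes a RIG-I-like receptor, was at 1.31, and Ddx58, which encodes RIG-I itself, at 0.71. Aim2, a sensor of cytosolic DNA, was at 0.72, while other genes of its family reached 4.48 (Ifi213), 3.48 (Ifi203) and 2.86 (Ifi214).

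The guanylate-binding proteins, GTPases that act on membranes of intracellular pathogens, covered a wide range. Gbp6 was at 3.41, Gbp9 at 3.08 and Gbp10 at 1.69, whereas Gbp3 (0.91), Gbp5 (0.70) and Gbp2 (0.67) were below the median of all positive elements. The immunity-related GTPase gene Irgm1 was at 3.36 and Tgtp2 at 2.55. Effectors and regulators included Ifi27 (3.34), Isg15, the ubiquitin-like modifier (3.25), Rtp4 (2.87), Irf7, the factor that amplifies interferon production (2.36), Cxcl10, a chemokine for T cells (1.93), and Mx1, a dynamin-like antiviral GTPase (1.74). Gvin1, a large interferon-induced GTPase gene, had the largest fold of the 741, at 7.97, in an element of 175 bp with 2 near-identical copies.

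**Figure D3:**
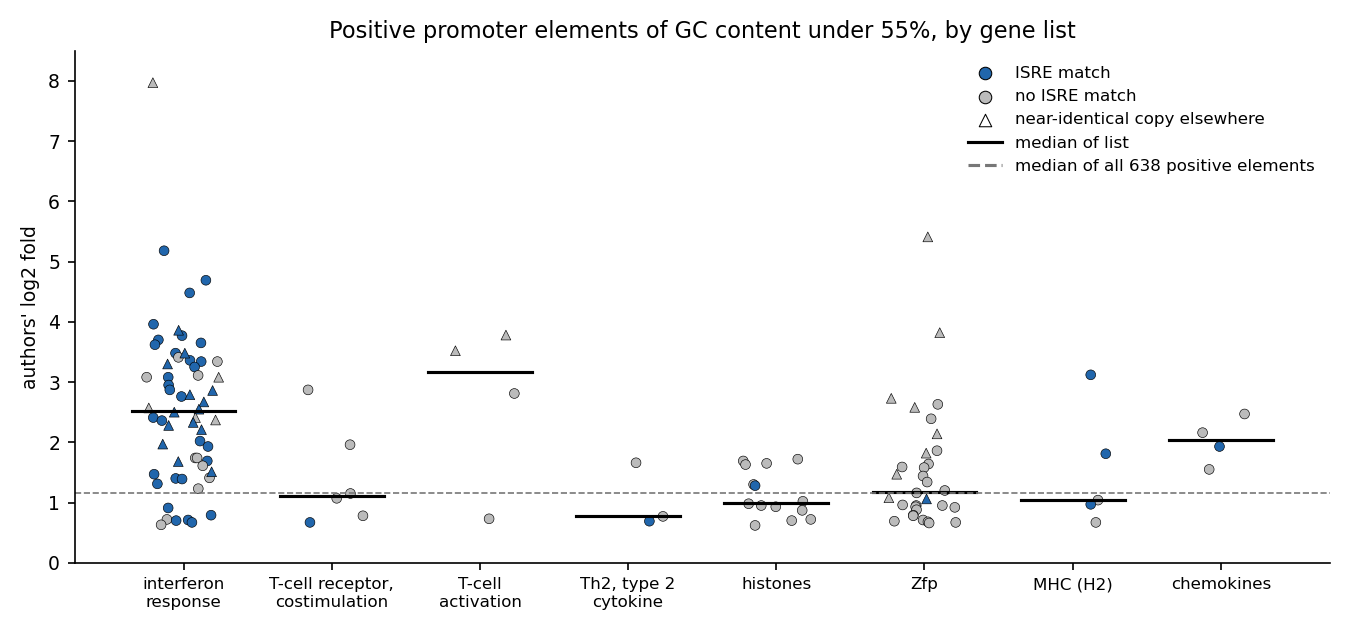
The authors' log2 fold (vertical axis) of each positive low-GC promoter element, by gene list, with 1 point per element, filled blue where it holds an ISRE match and triangular where a near-identical copy exists. Bars are list medians and the dashed line the median of all 638 positive elements (1.17). The interferon list has a median of 2.53.

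An ISRE match was held by 147 of the 638 positive elements (23.0%, 19.8 to 26.5%) and by 6 of the 103 negative ones (5.83%, 2.17 to 12.2%). In GC-rich promoter elements the share was 5.53%, or 11.7% of the positive ones, and in positive low-GC elements away from promoters 16.3%. Counted in the central 300 bp alone it was 16.6% of positive elements. In 300 bp windows it was 3.00% at all protein-coding starts and 5.17% at those of GC content under 55%. The 129 positive elements narrower than 300 bp were counted whole and offered less sequence than a window. The median log2 fold was 1.48 with a match and 1.08 without, and it was 1.08, 1.36 and 2.15 for elements with 0, 1 and 2 or more matches. Median widths were 525, 650 and 687.5 bp in those groups, so elements with more matches were also longer.

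Matches were not limited to the interferon list. Of the 147, 44 were at its genes (median log2 fold 2.61) and 103 at others (1.28). The 16 interferon elements with no match had a median of 2.39, among them Gbp6, Xaf1 (3.34), Adar, Mx1 and Ifi35 (1.74). Elements of other genes without a match stood at 1.07. Shisa5 (3.79), Tmem140 (3.21), Epb41 (3.34) and Parp11 (2.54) were strong elements with an ISRE outside the list. A match in the 250 bp upstream of the start went with a median of 1.92 (74 elements), and one elsewhere with 1.29 (73 elements).

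The density of ISRE matches was highest in the 100 bp upstream of the start, at 142 per 100 kb of positive element, and 78.1 in the 150 bp before that. In every other stretch examined it lay between 23.5 and 49.3. The site of NFY, the factor of the CCAAT box, peaked in the same place at 216 per 100 kb, as did the SP/KLF site (113) and the CRE (30.9). The AP-1 site did not: its density was 41.2 there and highest further than 500 bp upstream, at 117.

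**Figure D4:**
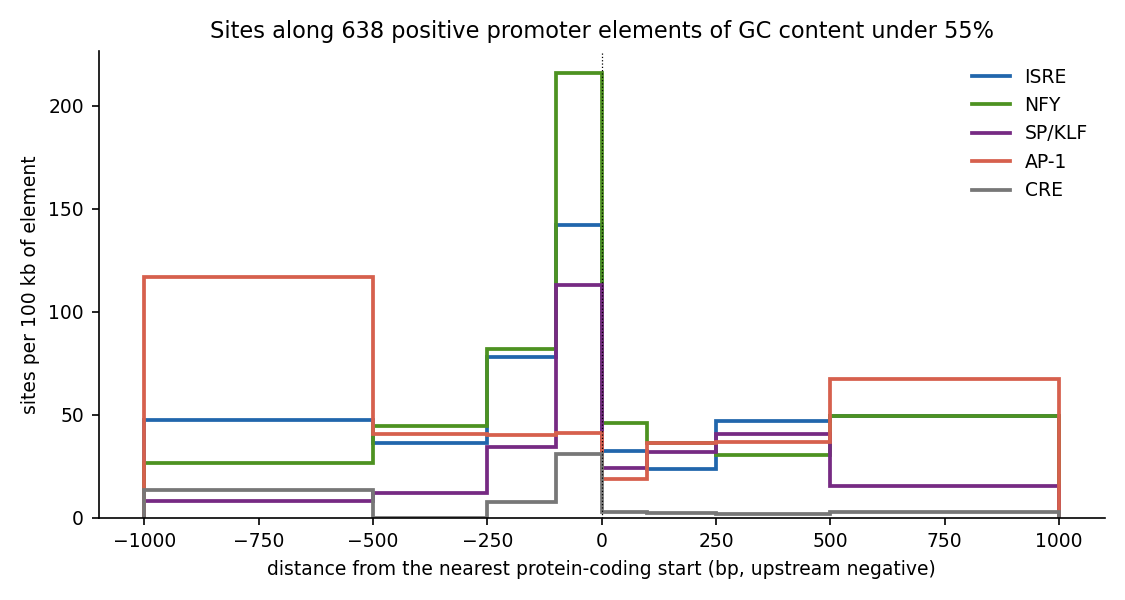
Number of matches per 100 kb of element (vertical axis) by distance from the nearest protein-coding start in bp (horizontal axis, upstream negative), for 5 sites in the 638 positive elements. ISRE, NFY, SP/KLF and CRE are densest in the 100 bp upstream of the start, and AP-1 between 1000 and 500 bp upstream.

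Related promoters show the same stretch with and without a match. Sequences are on the gene's strand, 5′ to 3′, aligned to the first of each group, with the ISRE match in capitals (GRCm38), and they show how far the fold followed the match.
Trim30d, log2 fold 3.96: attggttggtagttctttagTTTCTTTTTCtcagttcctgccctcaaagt
Trim30a, log2 fold 3.77: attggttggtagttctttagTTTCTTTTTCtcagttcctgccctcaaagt
Trim30c, log2 fold 1.61, chr7:104400886-104400935, minus strand: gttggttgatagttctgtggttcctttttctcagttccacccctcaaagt
Gbp10, log2 fold 1.69, chr5:105239799-105239848, minus strand: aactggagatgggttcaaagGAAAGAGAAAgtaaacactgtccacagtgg
Gbp6, log2 fold 3.41, chr5:105293965-105294014, minus strand: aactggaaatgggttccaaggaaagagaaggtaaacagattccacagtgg
Gbp9, log2 fold 3.08, chr5:105110508-105110557, minus strand: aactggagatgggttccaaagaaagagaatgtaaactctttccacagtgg

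Trim30d and Trim30a were identical over these 50 bases. Trim30c differed from Trim30d at 7 of them, written with the Trim30d base first and counted from 1 at the 5′ end of the stretch: A1G, G9A, T17G, A19G, T23C, T39A and G40C. T23C lies in the match, and Trim30c, the member without one, had the lowest fold of the 3. The Gbp stretches align with gaps, and their order was the opposite: Gbp10 holds the match and had the lowest fold of the 3 genes shown. Identical stretches also went with different folds. Ifi208 (2.41) and Ifi213 (4.48) were identical over their 50 bases, and Ifi206 (2.50) differed from Ifi213 by C11T alone, outside the match. Trim12c (3.65) differed from Trim5 (5.18) by A39C and G40T, outside the match. The elements differ elsewhere in sequence, extent and number of copies, and which difference goes with the fold was not tested.

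Of the sites for factors that act in T cells, AP-1 and the shorter STAT form were found more often in positive than in negative elements, with intervals apart. Those of NFAT (14.1% and 11.7%), NF-kB (15.5% and 12.6%), RUNX (15% and 16.5%) and TCF7/LEF1 (9.40% and 12.6%) had overlapping intervals. So did those of GATA (9.25% and 8.74%) and the lymphoid form of ETS, CAGGAAG (30.4% and 30.1%). AP-1, the site of FOS, JUN and BATF dimers (TGAGTCA), was in 24.3% of positive elements (21 to 27.8%) and 9.71% of negative ones (4.75 to 17.1%). Its share in positive low-GC elements away from promoters was higher, at 39.1%. The STAT site with a spacer of 3 bases (TTCNNNGAA) was in 25.4% and 13.6%, and the form with a spacer of 4 preferred by STAT6, the factor activated by IL-4, in 17.6% and 10.7%, with overlapping intervals for the STAT6 form. The CRE, the palindrome of CREB and ATF proteins (TGACGTCA), was in 24 positive elements (3.76%) and 1 negative one, again with overlapping intervals. In the central 300 bp of positive elements AP-1 was in 14.3%, against 4.00% of all starts and 5.89% of low-GC starts, and the shorter STAT form in 16.0%, against 7.27% and 11.2%. The STAT6 form was in 9.09%, against 6.09% and 10.2%. The 129 positive elements under 300 bp offered less sequence than a start window, so a lower share cannot be read as fewer sites. CRE was in 2.66%, against 2.37% and 1.12%. Of the positive elements 36.4% held none of ISRE, AP-1, either STAT form or CRE, and of the negative ones 65%. Elements with an AP-1 site had a median log2 fold of 1.08, against 1.19 without. Negative and positive elements also differ in CpG ratio, and its part in these shares was not tested.

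Examples with AP-1, CRE, the STAT6 form and NF-kB are shown, with the site in capitals and 20 bases on each side, on the gene's strand, 5′ to 3′ (GRCm38). Tuft1 (log2 fold 4.36) and Shisa5 (3.79) have the largest fold of unique elements with AP-1 and CRE, while Tnfrsf9, Cish and Ccl5 are T-cell genes.
Tuft1, AP-1, chr3:94659681-94659727, minus strand: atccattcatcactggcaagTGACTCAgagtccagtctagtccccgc
Tnfrsf9, AP-1, chr4:150915623-150915669, plus strand: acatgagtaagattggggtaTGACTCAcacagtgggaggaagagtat
Shisa5, CRE, chr9:109054839-109054886, plus strand: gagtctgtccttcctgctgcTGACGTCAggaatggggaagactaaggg
Cish, STAT6, chr9:107295780-107295829, plus strand: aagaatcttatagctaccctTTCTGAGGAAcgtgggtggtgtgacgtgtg
Ccl5, NF-kB, chr11:83530579-83530628, minus strand: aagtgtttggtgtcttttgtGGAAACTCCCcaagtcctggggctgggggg

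The Tuft1 stretch lies in an annotated exon, upstream of the nearest protein-coding start. The CRE of Shisa5 spans the annotated start, beginning at -4. The STAT6-form site of Cish, a feedback inhibitor of cytokine signalling, begins at -226, in an intron of another annotated transcript, and the element stood at 1.66. The AP-1 site of Tnfrsf9, which encodes the costimulatory receptor 4-1BB, begins at 1081, in an intron, in an element at 2.81. The NF-kB site of Ccl5, a chemokine of activated T cells, begins at -90, in an element at 2.47.

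The sites of general promoter factors had another distribution. SP/KLF (GGGCGGG) was in 14.9% of positive elements (12.2 to 17.9%), 31.1% of negative ones (22.3 to 40.9%) and 73.3% of GC-rich promoter elements. The site of ZNF143 and THAP11 (ACTACANNTCC) was in 3.45% of positive elements (2.17 to 5.17%) and 11.7% of negative ones (6.17 to 19.5%). The CpG form of the ETS site (CCGGAAG) was in 13.8% and 20.4%, with overlapping intervals, and NFY in 26.3% and 28.2%. In the central 300 bp of positive elements SP/KLF was in 8.78%, against 33.2% of all starts and 5.01% of low-GC starts, ETS in 8.78%, against 11.5% and 3.69%, and NFY in 17.6%, against 18.5% and 16.2%. The ZNF143 and THAP11 site was in 1.72%, against 2.47% and 1.89%. Elements narrower than 300 bp again offered less sequence than a start window. A match to any of these letters is a description of the sequence and does not show that a factor was bound. A TATA box (TATAAA) was searched between 40 and 20 bases upstream of the start, on the gene's strand. It was found at 1.88% of positive elements (0.976 to 3.26%), taken at the nearest protein-coding start. Among outermost starts of genes it was at 2.26% of all and 4.17% of low-GC ones (3.76 to 4.62%). These sets of starts are unlike. For 190 positive elements the start lay further inside the gene than its outermost one. For 204 the 300 bp around the start had GC content of 55% or more. Whether the shares differ at like starts was not tested. None of the 29 sites searched was found in 53 positive and 25 negative elements.

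**Figure D5:**
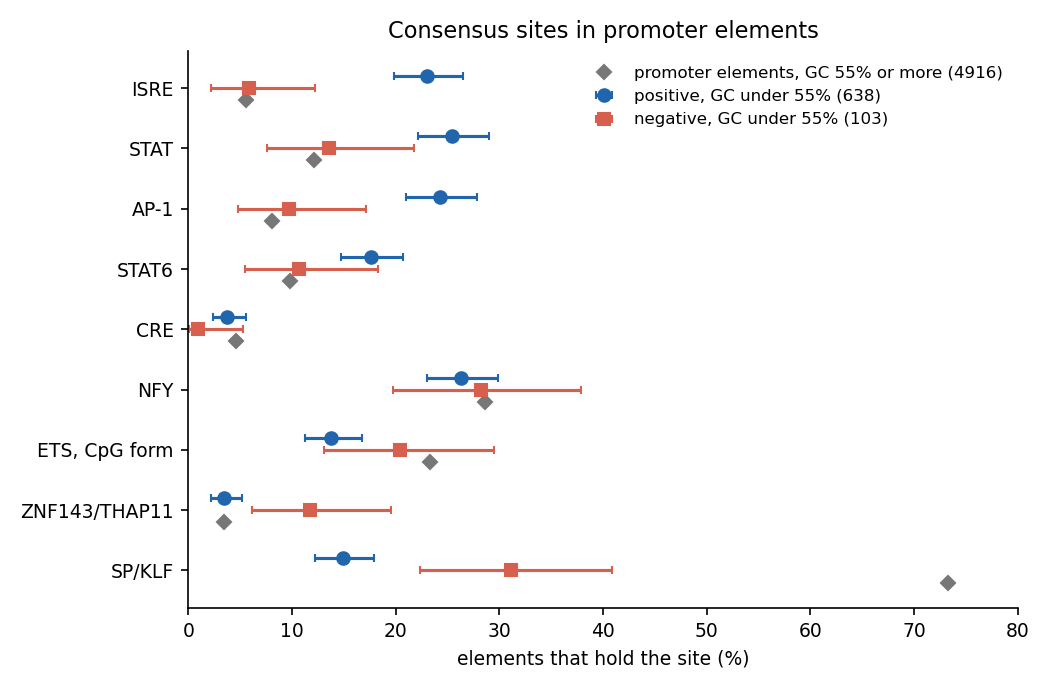
Share of elements (horizontal axis, percent) that hold each of 9 consensus sites, for positive (blue) and negative (red) low-GC promoter elements with exact 95% binomial intervals, and for GC-rich promoter elements (grey). ISRE reached 23.0% against 5.83% (positive, negative) and SP/KLF 14.9% against 31.1%.

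T-cell genes had 13 positive low-GC elements and 1 negative one over 3 lists, a split near that of all 741. Their GC-rich promoter elements were positive at 0 receptor and costimulation, 10 activation and 2 type 2 genes. Negative ones were at 2, 5 and 3 genes of these lists. Among all genes, GC-rich promoter elements were positive at 1286 and negative at 3650. A positive low-GC element was present at 2.98% of all genes. Of 42 genes of the T-cell receptor and its costimulators 6 (14.3%) had a positive low-GC element. They included the inhibitory receptors Ctla4 (2.87) and Tigit (1.96), Cd52 (1.07), and the receptor chains Cd3d (0.78) and Cd3e (0.67). Of 51 activation genes 4 (7.84%) had one: Bcl2a1b (3.78) and Bcl2a1d (3.52), which encode survival proteins of the BCL2 family, Tnfrsf9, and Nfkbiz (0.73), an atypical inhibitor of NF-kB. Both Bcl2a1 elements have near-identical copies. Of 32 genes of the Th2 and type 2 cytokine list 3 (9.38%) had a positive element, Cish, Nfil3 (0.77) and Hpgds (0.69), and Csf2, the gene of GM-CSF, had a negative one (-1.23). The chemokine genes Ccl27a (2.16) and Ccl4 (1.55) and the class I-like genes H2-T24 (3.12) and H2-T22 (1.81) were positive as well.

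The low-GC elements at histone genes held many CpG dinucleotides. Of 67 core and linker histone genes 16 (23.9%) had a positive element and none a negative one of low GC content, against 2.98% and 0.481% of all genes. GC-rich promoter elements were positive at 26 of the 67 histone genes and negative at 0, against 1286 and 3650 among all genes. The 14 low-GC elements had CpG ratios from 0.462 to 0.944. Their log2 folds ran from 0.62 at Hist1h1a to 1.72 at Hist2h2bb, so none reached 2. The NFY site was in 13 of them and the octamer, the site of POU2F1 and POU2F2, in 7. An ISRE was in 1. Zinc finger genes named Zfp, most of which encode DNA-binding repressors, had a positive element at 33 of 394 (8.38%) and a negative one at 5. Their median of 1.18 lay beside that of all positive elements, and the 9 of 32 elements with copies had a median of 2.14, against 0.95 for the rest.

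Near-identical copies went with high folds. A copy elsewhere in the genome (at least 80% of the length at 95% identity or more) existed for 84 elements, all positive, with a median log2 fold of 2.62, and 71.4% of them reached 2. The 657 elements without one were positive in 84.3% of cases, their positive median was 1.06, and 12.9% reached 2. With 3 or more copies the median was 3.58 (27 elements). Gm14399 (6.48, 22 copies), Gm8871 (6.44, 18 copies) and Zfp931 (5.41, 17 copies) were among the strongest, as was Gm8857 (5.60, 16 copies), and Sp100 (5.49, 3 copies) encodes a nuclear-body protein. How reads matching several copies were assigned is not stated in the labels, and its part in these folds was not tested. Among elements without a copy 42 interferon genes (37.8%) still had a positive one, against 2.60% of all genes, with a median of 2.41, and ISRE matches were in 22.2% of the 554 positive elements.

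The negative elements were few and of several kinds. The lowest q-value was that of Aloxe3, a lipoxygenase-family gene of the skin (-1.25, q-value 2.87e-06). Others with low q-values were Timm10, a chaperone of mitochondrial import (-1.73), Mylpf, a myosin light chain of fast muscle (-1.23), the membrane protein gene Cd200 (-1.38) and Hspa13 (-1.54), whose element holds the ZNF143 and THAP11 site. The largest negative fold was at Il12b, which encodes a subunit of IL-12 and IL-23 (-1.96), followed by Nek5 (-1.82) and Timm10. Of the 103, 17 were at most 75 bp wide, and 9 of those 17 had another negative element within 1000 bp, against 2 of the 19 positive elements of that width.

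The narrowest strong elements can be shown whole, on the gene's strand, 5′ to 3′, with any of the 29 sites in capitals (GRCm38). They are the unique elements of at most 200 bp with the largest fold in each direction, and the one with the largest positive fold among those with no site.
Il12b, log2 fold -1.96, chr11:44399326-44399400, plus strand: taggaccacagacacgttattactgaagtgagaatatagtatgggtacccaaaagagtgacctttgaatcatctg
Pfkp, log2 fold 2.53, chr13:6636676-6636850, minus strand: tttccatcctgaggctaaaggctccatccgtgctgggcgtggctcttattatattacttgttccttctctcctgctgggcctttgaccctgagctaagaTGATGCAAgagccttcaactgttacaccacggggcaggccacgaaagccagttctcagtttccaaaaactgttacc
St18, log2 fold 2.52, chr1:6486776-6486900, plus strand: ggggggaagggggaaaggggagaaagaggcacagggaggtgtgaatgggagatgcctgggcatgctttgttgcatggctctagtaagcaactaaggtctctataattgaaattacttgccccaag

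The Pfkp element, at the gene of a platelet-type phosphofructokinase, holds an ATF4 composite site upstream of the start, in an intron of another annotated transcript. The first base of the Il12b element lies at -737 from its start and that of the St18 element at -455, both between annotated transcripts, and neither holds any of the sites.

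Most genes with a low-GC start had no promoter element among those deposited. Regions that did not pass are absent and depth is unknown, so whether a promoter without an element was measured cannot be told. Of the 8623 genes whose outermost start lies in a window of GC content under 55%, 4.24% had a positive low-GC element and 0.51% a negative one. A promoter element of any GC content was present at 11.5% of them. Families used in other tissues had few. Olfactory receptor genes, with low-GC starts in 98.9% of 1133, had a positive element at 6 (0.53%), and vomeronasal receptors at 0 of 330. No positive low-GC element was found at the 110 keratin and keratin-associated, 100 cytochrome P450 or 42 beta-defensin genes. The listed markers of B cells (10 genes), myeloid cells (13), liver (15) and muscle (13) had none either. Lists of 10 to 42 genes are too small to tell a share of 0 from the 2.98% of all genes. Slc17a6, a glutamate transporter of neurons, was the exception among neuron markers, at 2.09 with a CpG ratio of 0.79.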

How the data were processed

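The authors deposited 1 table of elements for both output libraries together, on mm10 per the labels, with a signed log2 fold and its p-value and q-value. For the aligner, the caller and the test, the labels name none. Element widths are multiples of 25 bp. Sequence was read from GRCm38 p6 and starts from GENCODE M21 (protein-coding transcripts of protein-coding genes). The 17 elements off the assembled chromosomes belong to no promoter. GC content and the CpG ratio were computed per element. The 29 consensus sites were searched on both strands. Near-identical copies were found with minimap2 2.31 and related elements with blastn 2.17.0 (at least 80% identity over 50% of the shorter). Python 3.11.15, pandas 2.3.3 and scipy 1.17.1 gave counts, medians and binomial intervals. No test was made, since the table holds no replicate values. The site search was tested on simulated data.

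The 741 elements, the 23 gene lists and the sites were chosen with earlier results of these data known. Named genes are the 12 positive and 8 negative elements of lowest q-value, the 5 largest folds of each sign, genes with 3 or more elements, up to 6 per list by q-value, the 3 on each side of the GC limit, and the largest fold per site. Other interferon, histone, ISRE-holding, copied and related-group genes were named after their values were seen. Alternatives varied the promoter and GC limits, the transcripts, the q-value, the fold, repeats and copies.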

Additional observations from a re-analysis of the deposited data

How the results depend on the processing

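The 741 elements became 442 when an element had to contain a start, 340 under 50% GC, 1477 under 60% GC, 482 at a q-value under 0.001 and 432 at an absolute log2 fold of 1 or more. The positive share became 90.6% under 50% GC, 76.5% under 60% GC, 92.9% at the stricter q-value and 90.0% at the fold limit. The median positive log2 fold became 1.04 under 60% GC, 1.47 at the stricter q-value, 1.66 at the fold limit and 1.06 without near-identical copies, and the median negative one -1.20 and -1.25 at the stricter q-value and the fold limit. In the central 300 bp the shares of positive elements with a site fell with the shorter sequence, to 16.6% for ISRE, 14.3% for AP-1, 8.78% for the CpG form of ETS and for SP/KLF, 16.0% for STAT, 17.6% for NFY and 9.72% for the TATA box. With a promoter window of 500 bp SP/KLF became 19.1% and NFY 30.2%. Without the interferon list, an alternative chosen after the data were seen, ISRE became 17.8%. The other 55 of 80 alternative values moved less than the limit set for them (1.5 times for a count). They include 7 chosen after the data were seen, on copies, related groups, the interferon list, the window, the q-value and the fold. The medians were taken within each sign, so none of them could change sign. No paired analysis was possible because the 1 deposited table pools both libraries, and for the same reason neither library could be left out. Depth is unknown, so the precision of a single fold cannot be given.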

Other observations

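Several genes had more than 1 low-GC element. Ugt1a7c and Ugt1a6b, neighbouring first exons of the UDP-glucuronosyltransferase locus, had 3 positive elements, with log2 folds of 2.66, 1.48 and 1.07 in the authors' deposited table. The elements at 1.48 and 1.07 lay on either side of the same Ugt1a6b start. Ugt1a6a (1.24) and Ugt1a10 (1.21) had 1 each. Pde4d, a cAMP phosphodiesterase gene with many starts, had 3 elements of both signs, at -1.10, -0.81 and 1.06. In all, 4 genes had both a positive and a negative low-GC element, and 72 had a positive low-GC element together with a negative promoter element of GC content 55% or more. Of the 741 elements, 46 had starts of more than 1 gene within 1000 bp.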
